A study of Mus musculus with 4 samples.

Results

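Alppl2, the gene of the embryonic alkaline phosphatase, and Alpl, the gene of the tissue-nonspecific alkaline phosphatase, were followed in the inner cell mass (ICM) and the trophectoderm (TE) of mouse blastocysts at the times labelled D10 and E4. They were picked by name as 2 of the 21470 genes in the deposited count table, and both passed the filter on low counts. They were picked with their levels in these same libraries known, that is, the difference between the times for Alppl2 in both tissues and the difference between tissues and times for Alpl. Their levels and fold changes are therefore given as a description, with no test. The groups were the ICM at D10, the ICM at E4, the TE at D10 and the TE at E4, with 5 libraries each, all from wild-type (WT) embryos sired by B6D2F1 males on ICR females. D10 embryos came from 5 litters without a zona pellucida, the coat that a blastocyst sheds before it implants, and E4 embryos from 5 others, of which 2 had a zona and 3 had none. ICM and TE libraries that bear the same number within a time came from the same litter. The sources conflict on E4, which the title and the barcode list place before diapause (the reversible arrest of the blastocyst) while the extraction protocol speaks of diapause embryos throughout; the barcode list writes day6 for D10. How many embryos went into a library is not given in the sources used here, so spreads and p-values are those between these libraries.

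Alkaline phosphatases are zinc enzymes held on the outer face of the plasma membrane by a glycosylphosphatidylinositol (GPI) anchor, a lipid tail added in the endoplasmic reticulum. They remove phosphate from small substrates outside the cell, among them inorganic pyrophosphate, pyridoxal phosphate (a form of vitamin B6) and nucleotides. In the mouse, Alppl2 encodes the form found in the preimplantation embryo, and its product lies closest in the family to the intestinal enzymes Alpi and Akp3. Alpl encodes the form of bone, liver and kidney, which is also the stain of pluripotent stem cells and primordial germ cells.

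Total counts ran from 144276 to 1010354 per library, with the deepest library in D10 ICM (replicate 4) and the shallowest in E4 TE (replicate 5). Levels are CPM, that is, counts relative to the library's size on a common scale, with TMM factors. Each group was amplified as 1 pool of 5 barcoded libraries, so a difference between groups and one between pools cannot be told apart. The tissue labels matched the sums of the trophectoderm and primitive endoderm markers. Of 10 trophectoderm markers (Cdx2, Gata3 and the like), the summed level ran from 3520 to 5510 CPM in D10 ICM and from 2160 to 3040 CPM in E4 ICM, against 7310 to 9950 CPM in D10 TE and 7260 to 8220 CPM in E4 TE. The 10 primitive endoderm markers summed to 6150 to 8780 CPM in D10 ICM and 1660 to 4000 CPM in E4 ICM, against 409 to 1320 CPM in D10 TE and 209 to 558 CPM in E4 TE. The 10 epiblast markers summed to 1130 to 1760 CPM in D10 ICM, 2430 to 3910 CPM in E4 ICM, 548 to 1070 CPM in D10 TE and 1010 to 3660 CPM in E4 TE. Most of the epiblast sum in the TE came from Dppa5a, and the epiblast gene Sox2 had 470 counts in D10 ICM, 421 in E4 ICM, 0 in D10 TE and 1 in E4 TE. Of the trophectoderm markers, the keratin Krt18 had the most counts in each group (4123 in D10 ICM, 1515 in E4 ICM, 7834 in D10 TE, 3163 in E4 TE). Not every marker followed the sum. Elf5 had 336 counts in D10 ICM and 176 in D10 TE, and Tead4 had 104 in E4 ICM and 100 in E4 TE. Thus each tissue piece held some RNA of genes listed as markers of the other lineage. The ICM pieces held more primitive endoderm marker RNA at D10 than at E4.

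Alppl2 (ENSMUSG00000026246) lies on chromosome 1 at 87086694 to 87089928 (GRCm38, minus strand), a gene of 3235 bases and up to 12 exons, with Alpi 8073 bases beyond its start and Akp3 another 23366 bases on. It lies within the span of the long noncoding RNA gene Gm29371 on the opposite strand, with 0 exon bases in common. Alpl (ENSMUSG00000028766) lies on chromosome 4 at 137741733 to 137796384 on the minus strand, spans 54652 bases with up to 12 exons, and overlaps no annotated gene. Alpi and Akp3 are not analysed here, since the deposited counts hold no row under either symbol. None of the 2341 windows of 81 bases, the read length, in the transcripts of Alppl2 occurs exactly in a transcript of another gene. The same holds for the 3972 windows in those of Alpl. Near matches that differ by a few bases, and reads shortened by trimming, were not checked.

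The stretch of 250 bases upstream of each start is shown because the members differ in how many starts they have. In base composition, the first Alpl stretch differs from that of Alppl2 and from the second Alpl stretch. RefSeq (GRCm38.p6) gives 1 start for Alppl2 and 2 for Alpl, the first ahead of the farthest exon and the second inside the gene. Capitals mark matches, on either strand, to the TATA-like word TATTTAA, to the TATA box letters TATAAA, to the GC box, whose letters are GGGCGG, and to the motif GCCNNNGGC of TFAP2 factors, which are active in trophectoderm.
Alppl2, chr1:87089929-87090178, minus strand: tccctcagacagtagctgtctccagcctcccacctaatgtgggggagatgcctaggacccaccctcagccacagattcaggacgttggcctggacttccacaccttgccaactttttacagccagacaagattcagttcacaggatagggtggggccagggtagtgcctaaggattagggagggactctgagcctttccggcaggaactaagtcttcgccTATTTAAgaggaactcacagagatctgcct
Alpl start 1, chr4:137796385-137796634, minus strand: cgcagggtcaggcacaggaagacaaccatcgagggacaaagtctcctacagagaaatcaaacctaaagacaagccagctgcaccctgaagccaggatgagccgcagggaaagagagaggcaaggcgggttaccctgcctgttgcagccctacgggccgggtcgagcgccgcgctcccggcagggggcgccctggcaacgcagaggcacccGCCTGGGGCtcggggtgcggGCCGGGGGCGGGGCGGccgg
Alpl start 2, chr4:137766476-137766725, minus strand: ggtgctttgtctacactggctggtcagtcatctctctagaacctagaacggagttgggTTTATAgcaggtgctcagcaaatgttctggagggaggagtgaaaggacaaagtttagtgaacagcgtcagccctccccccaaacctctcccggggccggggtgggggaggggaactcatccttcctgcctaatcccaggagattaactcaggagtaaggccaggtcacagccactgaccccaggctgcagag
The Alppl2 stretch is 54.0% G or C with 3 CpG dinucleotides. It holds TATTTAA 30 bases before the start, a TATA-like word found in 4.18% of 32851 promoters of the same length. This word was chosen after the sequence was seen. The first Alpl stretch is 68.4% G or C, above 88.4% of those promoters, whose median is 52.4%, and it holds 20 CpG dinucleotides against a median of 6. It has 2 GC boxes, 15 and 10 bases before the start, a motif that 32.7% of promoters hold, and 2 TFAP2 motifs 40 and 20 bases before the start, which 13.7% of promoters hold. The TFAP2 motif at 20 overlaps the GC box at 15. The second Alpl stretch is 56.0% G or C with 4 CpG dinucleotides, and holds TATAAA on the opposite strand 192 bases before the start, a motif of 12.4% of promoters. The GATA factor motif AGATAA, which 9.99% of promoters hold, is in none of the 3 stretches on either strand. The same holds for the TEAD factor motif GGAATG (12.6% of promoters). It also holds for the E-box with the letters CACGTG (6.02% of promoters). The short KLF word CACCC, in 52.0% of promoters, is in all 3 and is not capitalised. Alppl2 shares the run ttcagttcacagg of 13 bases, 119 bases before its start, with the promoters of Alpi and Akp3, and 9 of 32851 promoters hold it. Counts at the 3′ end do not show which Alpl start was used. These matches describe letters and not binding.

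Alppl2 was low in both tissues at D10 and high in both at E4, most of all in the TE. In D10 ICM, Alppl2 had 4.75, 1.65, 0, 5.25 and 0 CPM in replicates 1 to 5, against 31.7, 94, 48.6, 41.4 and 94.6 CPM in E4 ICM. Every D10 ICM library lay below every E4 ICM library. The D10 ICM values rest on 7 counts in all, with 2 libraries at 0, against 104 counts in E4 ICM. A count of 0 allows up to 16.6 CPM in replicate 3 and 13.9 CPM in replicate 5, taking 3 counts as the limit. The group means were 2.33 ± 2.54 CPM in D10 ICM and 62.1 ± 30 CPM in E4 ICM (SD, n = 5 each). The fitted log2 fold change of D10 over E4 in the ICM was -4.19 ± 0.68 (SE), or 18.2-fold lower at D10, rank 6 from the lowest of 6943 genes tested. Without D10 ICM replicate 4, which holds 5 of the 7 counts, it was -4.99. Pooled over libraries, the level was 3.23 CPM in D10 ICM (exact Poisson 95% interval 1.3 to 6.66) and 61.6 CPM in E4 ICM (50.3 to 74.6), intervals that cover counting error only. Whether fewer cells held Alppl2 RNA or each cell held less cannot be told apart in tissue pieces.

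In the TE, Alppl2 had 5.48, 0, 10, 5.24 and 5.46 CPM in D10 libraries 1 to 5, against 351, 531, 63.3, 283 and 515 CPM in E4 libraries 1 to 5. Again the ranges did not overlap, although E4 TE replicate 3 stood far below the other 4. Counts summed to 13 in D10 TE and 429 in E4 TE, and the 1 library at 0, D10 TE replicate 2, allows up to 6.12 CPM. Means were 5.24 ± 3.55 CPM in D10 TE and 349 ± 191 CPM in E4 TE (SD, n = 5 each). Pooled levels were 5.25 CPM in D10 TE (2.8 to 8.98, exact Poisson 95% interval) and 292 CPM in E4 TE (265 to 321). The fitted log2 fold change of D10 over E4 in the TE was -5.94 ± 0.54, or 61.2-fold lower at D10, at rank 11 from the lowest of 6943 genes. At a non-overlap of the groups' ranges stood 14.5% of all tested genes for the times in the ICM and 15.2% in the TE, in either direction. As the members were picked on these contrasts, nothing is read from that background.

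Between the tissues, Alppl2 was lower in the ICM than the TE at E4. The fitted log2 fold change of ICM over TE at E4 was -2.44 ± 0.42, or 5.43-fold lower in the ICM. The ranges overlapped because E4 TE replicate 3, at 63.3 CPM, lay below E4 ICM replicates 2 and 5. Without that TE library the value was -2.75. At D10 the ICM and TE values overlapped throughout, with a log2 fold change of ICM over TE of -0.69 ± 0.94, and of -1.49 without D10 ICM replicate 4. With 7 counts in D10 ICM and 13 in D10 TE, a difference between the tissues at D10 was not detectable at this depth. The groups ordered from high to low as E4 TE, E4 ICM, D10 TE and D10 ICM. The neighbours E4 TE and E4 ICM overlapped through 1 library, and the neighbours D10 TE and D10 ICM overlapped. E4 ICM lay wholly above D10 TE.

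**Figure D1:**
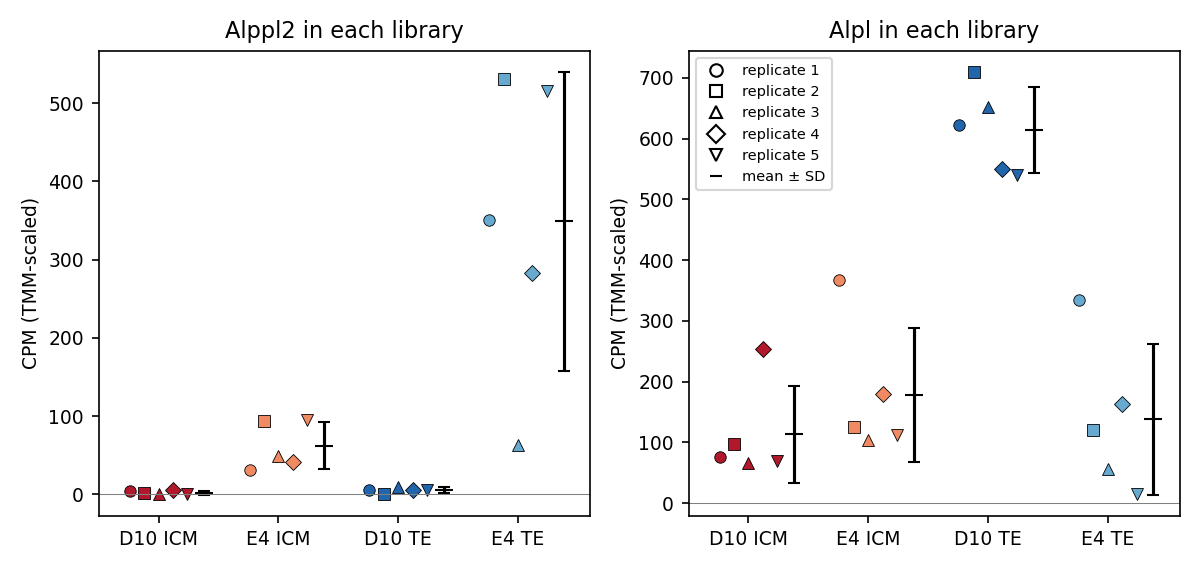
Level of Alppl2 (left) and Alpl (right) in CPM (TMM-scaled, linear axis) in each of the 20 libraries by group, with the marker shape giving the replicate and the bar the mean ± SD over 5 libraries. Alppl2 lies at 10 CPM or below in every D10 library, and the 5 D10 TE libraries hold the highest Alpl values, 541 to 710 CPM.

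Alpl was highest in the TE at D10 and lower in the other 3 groups, which overlapped. In the TE, Alpl had 622, 710, 652, 550 and 541 CPM in D10 libraries 1 to 5, against 334, 120, 56, 163 and 14.3 CPM in E4 libraries 1 to 5. Every D10 TE library lay above every E4 TE library. Counts summed to 1527 in D10 TE and 194 in E4 TE, and the lowest value, E4 TE replicate 5, rests on 2 counts in the shallowest library. Means were 615 ± 70.8 CPM in D10 TE and 138 ± 124 CPM in E4 TE (SD, n = 5 each). The fitted log2 fold change of D10 over E4 in the TE was 2.17 ± 0.45, or 4.5-fold higher at D10, at rank 210 from the highest of 6943 genes. The uterus also makes Alpl, and 9 uterine markers with a row summed to 325 to 758 CPM in D10 TE and 20.7 to 372 CPM in E4 TE, against 65.9 to 288 CPM in D10 ICM and 17.2 to 37.2 CPM in E4 ICM. Most of those counts were of Krt7, a keratin that trophectoderm also makes, with 1109 in D10 TE and 267 in E4 TE. Of the other 8 markers, Muc1 had 51 counts in D10 TE and 2 in E4 TE, Esr1 16 in D10 TE and 4 in E4 TE, Sprr2f 11 in D10 TE and 0 in E4 TE, Calb1 3 in D10 TE and 13 in E4 TE, and Pgr 0 in D10 TE and 5 in E4 TE, while Ltf, Ihh and Hoxa10 were at 0 in both. The part of uterine RNA in the Alpl value was not tested. The D10 TE libraries were also the most alike, with an SD of 11.5% of the mean, against 70.9% in D10 ICM, 62% in E4 ICM and 90% in E4 TE.

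In the ICM, Alpl had 76.1, 97.2, 66.5, 254 and 69.7 CPM in D10 libraries 1 to 5, against 368, 125, 104, 180 and 112 CPM in E4 libraries 1 to 5. Of the D10 libraries, 4 lay below all E4 libraries and replicate 4 lay above 4 of the 5. Means were 113 ± 79.9 CPM in D10 ICM and 178 ± 110 CPM in E4 ICM (SD, n = 5 each), on 344 counts in D10 ICM and 264 in E4 ICM. The fitted log2 fold change of D10 over E4 in the ICM was -0.49 ± 0.45. It was -1.11 without D10 ICM replicate 4 and -0.09 without E4 ICM replicate 1, so 1 library in each group sets its size. D10 ICM replicate 4 did not stand apart in trophectoderm markers, whose sum was 3550 CPM there and 3520 to 5510 CPM in the other 4 D10 ICM libraries. Its epiblast sum was 1760 CPM, the highest of its group, and its blood marker sum was 145 CPM, against 0 to 37.1 CPM in the other 4. Their part in the Alpl value was not tested.

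At D10, Alpl was lower in the ICM than the TE in every library, with a log2 fold change of ICM over TE of -2.33 ± 0.44, or 5.04-fold lower in the ICM, and of -2.95 without D10 ICM replicate 4. The highest ICM value, 254 CPM, stayed below the lowest TE value, 541 CPM. At E4 the tissues overlapped, with a log2 fold change of ICM over TE of 0.32 ± 0.46, which was -0.08 without E4 ICM replicate 1. Ranges that do not overlap were found for 16.3% of all tested genes between the tissues at D10 and for 20.8% at E4. The groups ordered from high to low by mean as D10 TE, E4 ICM, E4 TE and D10 ICM, and D10 TE stood apart from the next group, while the neighbours among the last 3 overlapped. The D10 minus E4 change in the ICM minus that in the TE was -2.66 ± 0.64 on the log2 scale for Alpl, at rank 51 from the lowest of 6943, and -3.26 without D10 ICM replicate 4. For Alppl2 the same difference of changes was 1.75 ± 1.18, and 0.95 without D10 ICM replicate 4.

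**Figure D2:**
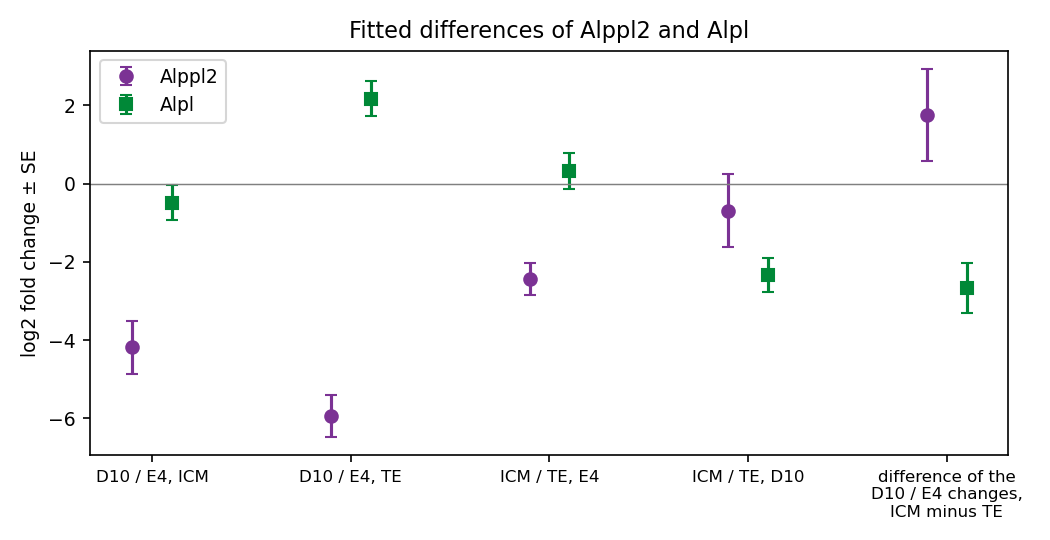
Fitted log2 fold change ± SE of Alppl2 (circles) and Alpl (squares) for D10 over E4 in each tissue, ICM over TE at each time, and the difference of the time changes, ICM minus TE. In the TE the members lie on opposite sides of 0, Alppl2 at -5.94 and Alpl at 2.17.

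The litters give the same tissues side by side. For Alppl2 at D10, the ICM minus TE difference in log2 CPM (with a prior count of 2) was -0.1, 0.4, -1.56, 0 and -1.05 in litters E, F, G, Q and S, against -3.27, -2.43, -0.35, -2.63 and -2.38 at E4 in litters B, C, M, N and O. All 5 E4 litters had less Alppl2 in the ICM, and litter M had the smallest difference. For Alpl at D10, the ICM minus TE difference was -2.95, -2.8, -3.2, -1.1 and -2.87 in litters E, F, G, Q and S, against 0.14, 0.06, 0.84, 0.14 and 2.59 at E4 in litters B, C, M, N and O. Thus the Alpl level of the ICM was below that of the TE in all 5 D10 litters and above it in all 5 E4 litters, though 3 of the E4 differences were 0.14 or less. With the litter as a replicate block, ICM over TE was -2.54 ± 0.3 at D10 and 0.5 ± 0.31 at E4 for Alpl.

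**Figure D3:**
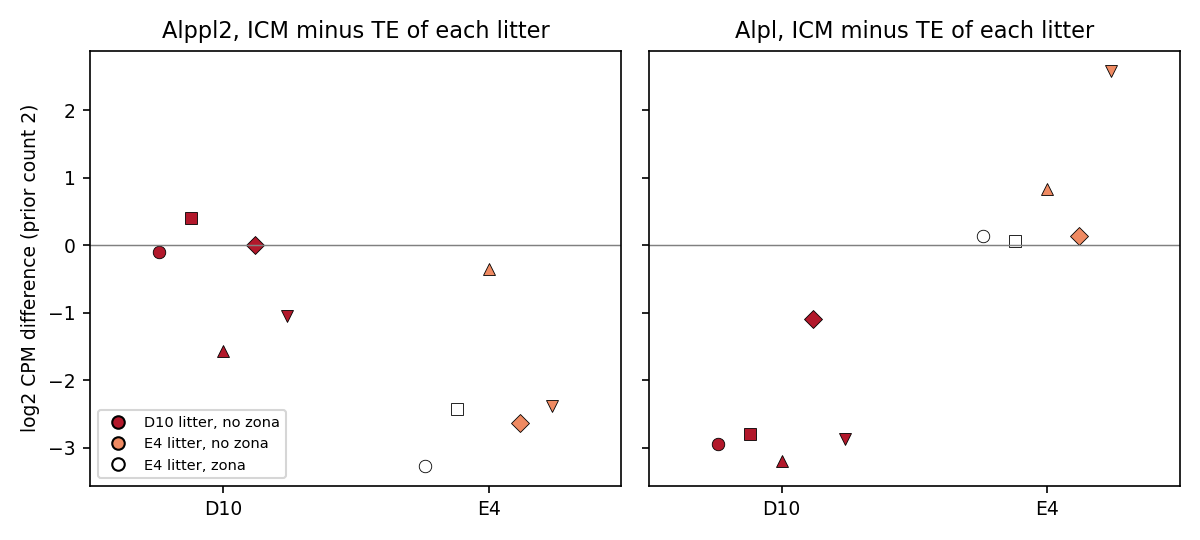
ICM minus TE difference in log2 CPM (prior count 2) of Alppl2 (left) and Alpl (right) for each litter at D10 and E4, with open symbols for the E4 litters with a zona. The 5 D10 litters lie below 0 for Alpl and the 5 E4 litters lie above it, while for Alppl2 the 5 E4 litters lie below 0.

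The presence of a zona, which was not used to pick the genes, varied among the E4 litters only. Averaged over both tissues of a litter, Alppl2 had a mean log2 CPM of 7.34 in the 2 litters with a zona and 6.87 in the 3 without, a difference of 0.47 (p = 0.5, exact two-sided permutation test). Alpl had 7.74 with a zona and 6.46 without, a difference of 1.27 (p = 0.3, exact two-sided permutation test). Both values adjusted over these 2 comparisons were 0.5. With 10 ways to split the litters the smallest p is 0.1, so this design cannot pass 0.05. Without the zona litters, D10 over E4 was -4.08 in the ICM and -5.65 in the TE for Alppl2, and -0.11 in the ICM and 2.77 in the TE for Alpl.

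The counts of Alppl2 as a share of the counts of both genes are independent of library scaling. Counts were not divided by transcript length, so the share sets libraries, and not the genes, side by side. The share was 5.88%, 1.67%, 0%, 2.02% and 0% in D10 ICM libraries 1 to 5, against 7.94%, 42.9%, 31.8%, 18.7% and 45.8% in E4 ICM. It was 0.872%, 0%, 1.52%, 0.943% and 1% in D10 TE, against 51.3%, 81.5%, 53.1%, 63.4% and 97.3% in E4 TE. E4 TE lay wholly above E4 ICM, and both lay above every D10 library, while the D10 groups overlapped. The gap between E4 ICM and D10 ICM was narrow, 7.94% in E4 ICM replicate 1 against 5.88% in D10 ICM replicate 1. The latter rests on 1 Alppl2 count, and its 95% interval of 0.149% to 28.7% holds the whole interval of the former. Exact Clopper-Pearson 95% intervals are wide where counts are few, 0% to 26.5% in D10 ICM replicate 3 (12 counts) and 2.63% to 17.6% in E4 ICM replicate 1, and narrow in D10 TE replicate 2 (0% to 1.05%).

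**Figure D4:**
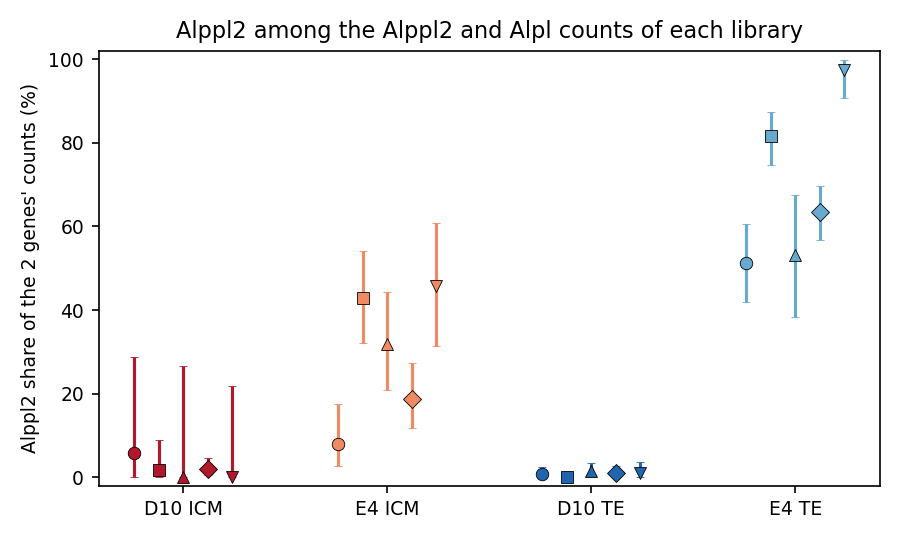
Alppl2 counts as a percent of the Alppl2 and Alpl counts of each library, by group, with exact 95% binomial intervals. E4 TE libraries lie at 51.3% to 97.3%, E4 ICM libraries at 7.94% to 45.8%, and all D10 libraries at 5.88% or below.

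Other genes were ranked by the Pearson correlation of their log2 CPM (prior count 2) with each member over the 20 libraries, which share groups and pools, as a description. Most like Alppl2 were Cdk18 (a kinase of the cyclin-dependent family, r = 0.927), Baz1a (a subunit of ISWI chromatin remodellers, 0.889), Psmc6 (a proteasome ATPase, 0.889), Ino80d (a subunit of the INO80 remodeller, 0.876) and Pramel6 (a PRAME-like gene of early embryos, 0.871). Cdk18 averaged 5.37 CPM in D10 ICM, 18.7 in E4 ICM, 5.49 in D10 TE and 63.7 in E4 TE, in the order of the Alppl2 groups. Pramel6 averaged 18.4 CPM in D10 ICM, 157 in E4 ICM, 53.4 in D10 TE and 310 in E4 TE. Most like Alpl were Pisd (which makes phosphatidylethanolamine in mitochondria, 0.845), Hypk (0.786), Cbr4 (0.769), Rasa2 (a GTPase-activating protein for Ras, 0.752) and Tmem14c (a mitochondrial protein of heme synthesis, 0.747). Pisd averaged 29.5 CPM in D10 ICM, 41.6 in E4 ICM, 67.8 in D10 TE and 36.1 in E4 TE, and Tmem14c 168, 123, 776 and 305 CPM in the same order of groups. With Spearman's rank correlation in place of Pearson's, 1 of the 5 stayed among the top 5 for Alppl2 and 2 of 5 for Alpl, so the ranking depends on the measure. Between Alppl2 and Alpl, Pearson's r was -0.346 and Spearman's rho -0.103 over the same libraries.

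Genes that make the anchor, act on the same substrates or share the chemistry were read from 6 lists. Of 155 symbols, 129 had a row and 61 passed the count filter, and a gene passed the test at an adjusted p under 0.05 (edgeR quasi-likelihood, Benjamini-Hochberg over 6943 genes). For D10 over E4 in the ICM, 14 of 61 were higher and 4 lower (23% and 6.56%, against 13.7% and 9.97% of all genes). For D10 over E4 in the TE, 13 were higher and 5 lower (21.3% and 8.2%, against 11.9% and 9.89%). For ICM over TE at E4, 10 were higher and 14 lower (16.4% and 23%, against 15.8% and 15.4%). For ICM over TE at D10, 8 were higher and 12 lower (13.1% and 19.7%, against 12.9% and 12.6%). For the difference of the time changes, 1 was higher and 1 lower (1.64% each, against 3.15% and 1.83%). The median log2 fold change of the 61 was 0.19 for time in the ICM and 0.21 in the TE, against 0 and 0.02 over all genes. The comparisons share groups, so their counts are not independent of each other.

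Of the machinery that builds and attaches the GPI anchor, 11.8% was called higher and 0% lower for time in the ICM (13.7% and 9.97% of all genes). For time in the TE, 0% was higher and 5.88% lower (11.9% and 9.89% of all genes). For ICM over TE at E4, 0% was higher and 17.6% lower (15.8% and 15.4% of all genes). At D10 the list had 0% in either direction (12.9% and 12.6% of all genes). Of 17 tested genes, 2 rose and 0 fell at D10 in the ICM, 0 rose and 1 fell in the TE, 3 were lower in the ICM than the TE at E4, and 0 of 17 passed between the tissues at D10 by edgeR. There 3 of 17 had an unadjusted p under 0.05, and DESeq2 called 0, while with the litter as a replicate block 2 were called. The medians were 0.01 for time in the ICM and -0.13 in the TE. Pgap2, which remodels the lipid of the anchor, averaged 61.7 ± 41.7 CPM in D10 ICM and 21.7 ± 13.4 CPM in E4 ICM (SD, n = 5 each; log2 1.39 ± 0.43, adjusted p = 0.0194). That call was lost without E4 ICM replicate 2 and without D10 ICM replicate 3, with adjusted p up to 0.0951 over the alternatives. Pyurf, which shares its transcript with the anchor gene Pigy, had a log2 change of 1.53 ± 0.56 (adjusted p = 0.0477), lost when any 1 of 10 libraries was left out (adjusted p up to 0.138). Pigq, a subunit of the enzyme of the first step, averaged 38.7 ± 7.06 CPM in D10 TE and 72.7 ± 14.5 CPM in E4 TE (log2 -0.87 ± 0.24, adjusted p = 0.00867), with adjusted p = 0.0845 with no filter on low counts. At E4 it was lower in the ICM than the TE (log2 -0.79 ± 0.25, adjusted p = 0.0152), a call lost with library totals, with no filter and without the zona litters (adjusted p up to 0.11). Pigp, another subunit of that enzyme, was lower in the ICM too (log2 -0.86 ± 0.31, adjusted p = 0.0369), a call lost when any 1 of 5 libraries was left out (adjusted p up to 0.11).

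Other proteins that carry a GPI anchor changed in both directions. Of 17 tested, 6 rose and 3 fell at D10 in the ICM (35.3% and 17.6%, against 13.7% and 9.97% of all genes). In the TE 5 rose and 1 fell (29.4% and 5.88%, against 11.9% and 9.89% of all genes). Against the TE at E4, 5 were higher in the ICM and 5 lower (29.4% each, against 15.8% and 15.4% of all genes). At D10, 6 were higher and 5 lower (35.3% and 29.4%, against 12.9% and 12.6% of all genes). Tdgf1, the Nodal co-receptor Cripto and an epiblast marker, averaged 123 ± 54.5 CPM in D10 ICM and 666 ± 255 CPM in E4 ICM (log2 -2.35 ± 0.31, adjusted p = 2.36e-05). It had 999 counts in E4 ICM and 2 in E4 TE, a pooled ratio of 434 (exact 95% interval 120 to 3590), and at D10 it was at least 124-fold higher in the ICM, where 3 counts stand for the 0 of the TE. Gpc3, a glypican, averaged 400 ± 485 CPM in D10 ICM and 11.8 ± 15.5 CPM in E4 ICM (log2 5.21 ± 0.75, adjusted p = 4.62e-05), and at D10 its pooled ICM to TE ratio was 534 (182 to 2590) with 1402 ICM counts and 3 TE counts. D10 ICM replicate 4 alone held 1230 CPM, against 76.1 to 413 CPM in the other 4. Without it the mean was 192 ± 152 CPM (SD, n = 4), the log2 change 4.07 ± 0.57 (adjusted p = 4.89e-05) and the ratio 151 (51 to 737). By group, Gpc3 and the primitive endoderm markers given above were both highest in D10 ICM. In D10 ICM replicates 1 to 5, the marker sums were 7580, 8780, 6150, 8450 and 7320 CPM. Gpc3 was at 76.1, 166, 111, 1230 and 413 CPM in the same libraries. In E4 ICM replicates 1 to 5, the marker sums were 1660, 2000, 4000, 3070 and 2460 CPM. Gpc3 was at 0, 2.61, 9.27, 8.27 and 38.7 CPM there. The orders differed in D10 ICM and were the same in E4 ICM but for replicate 5. The part of primitive endoderm RNA in the Gpc3 value was not tested. Car4, a carbonic anhydrase, averaged 306 ± 147 CPM in D10 TE and 48.4 ± 15.5 CPM in E4 TE (log2 2.61 ± 0.48, adjusted p = 0.000289). Cd59a, an inhibitor of complement, averaged 66.2 ± 25.3 CPM in D10 TE and 19.8 ± 19.6 CPM in E4 TE (log2 1.82 ± 0.46, adjusted p = 0.00574). Efna1, an ephrin ligand, had a log2 fold change of ICM over TE at E4 of -5.03 ± 0.78 (adjusted p = 2.51e-05), on 6 counts in the ICM, all in 1 library, and 217 in the TE.

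Genes that handle phosphate and pyrophosphate include the partners of Alpl in mineralising tissue, where Enpp1 makes pyrophosphate and Ank brings it out of the cell. Of 9 tested, 1 rose and 1 fell at D10 in the ICM (11.1% each, against 13.7% and 9.97% of all genes). In the TE 2 rose and 2 fell (22.2% each, against 11.9% and 9.89% of all genes). Against the TE at E4, 1 was higher in the ICM and 3 lower (11.1% and 33.3%, against 15.8% and 15.4% of all genes). At D10, 0 were higher and 2 lower (0% and 22.2%, against 12.9% and 12.6% of all genes). Both partners were lower in the ICM than the TE at D10, as Alpl was. Enpp1 averaged 79.9 ± 59.1 CPM in D10 ICM and 370 ± 168 CPM in D10 TE (log2 -2.41 ± 0.42, adjusted p = 9.3e-05), and Ank 78.1 ± 42.4 CPM in D10 ICM and 338 ± 21 CPM in D10 TE (log2 -2.12 ± 0.33, adjusted p = 2.32e-05). Both were lower in the ICM at E4 as well (Ank log2 -2.3 ± 0.32, adjusted p = 6.06e-06; Enpp1 log2 -1.75 ± 0.41, adjusted p = 0.00206), where the Alpl ranges of the tissues overlapped. Over time in the TE, Ank fell at D10 (log2 -1.02 ± 0.3, adjusted p = 0.0142), with adjusted p = 0.127 without the zona litters. Alpl was higher at D10 there, at 2.17, and Enpp1 was not called (log2 0.62 ± 0.37, adjusted p = 0.247). Slc34a2, a sodium-dependent phosphate importer, fell to 22.6 ± 19.7 CPM in D10 TE, against 164 ± 70.1 CPM in E4 TE (log2 -2.76 ± 0.45, adjusted p = 8.63e-05). Ppa2, the mitochondrial pyrophosphatase, averaged 43.4 ± 10.5 CPM in D10 TE and 10.1 ± 4.8 CPM in E4 TE (log2 1.99 ± 0.42, adjusted p = 0.0013). Slc20a2, another phosphate importer, rose in the ICM (log2 1.35 ± 0.44, adjusted p = 0.027), a call lost when any 1 of 4 libraries was left out (adjusted p up to 0.0903). Ppa1, the cytosolic pyrophosphatase, averaged 84.3 ± 23.1 CPM in D10 ICM and 174 ± 27.1 CPM in E4 ICM (log2 -1.0 ± 0.28, adjusted p = 0.0118), with adjusted p = 0.0523 without the zona litters. At E4, Ppa1 was higher in the ICM than the TE (log2 1.66 ± 0.3, adjusted p = 0.000164).

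Genes of extracellular nucleotides and adenosine, some of whose substrates alkaline phosphatases share, had 4 of 9 calls in the TE, all upward (44.4%, against 11.9% of all genes higher). That count was 2 at a minimum count of 30 or without the zona litters, 3 with library totals, 1 in thinned libraries, and 2 without E4 TE replicate 1, without E4 TE replicate 4 or without D10 TE replicate 4. Of 9 tested, 2 rose and 1 fell at D10 in the ICM (22.2% and 11.1%, against 13.7% and 9.97% of all genes). In the TE 4 rose and 0 fell (44.4% and 0%, against 11.9% and 9.89% of all genes). Against the TE at E4, 4 were higher in the ICM and 1 lower (44.4% and 11.1%, against 15.8% and 15.4% of all genes). At D10, 3 were higher and 3 lower (33.3% each, against 12.9% and 12.6% of all genes). The median change in the TE was 1 on the log2 scale. Nt5e, the ectonucleotidase CD73 that makes adenosine from AMP and is itself GPI-anchored, averaged 9.63 ± 5.38 CPM in D10 ICM and 39 ± 16.5 CPM in E4 ICM (log2 -1.95 ± 0.56, adjusted p = 0.0136), with adjusted p = 0.0604 without D10 ICM replicate 2. Slc29a1, an adenosine transporter, averaged 459 ± 137 CPM in D10 ICM and 195 ± 120 CPM in E4 ICM (log2 1.2 ± 0.35, adjusted p = 0.014), with adjusted p = 0.0854 without the zona litters. Adk, adenosine kinase, averaged 102 ± 48.2 CPM in D10 TE and 23.6 ± 4.9 CPM in E4 TE (log2 2.08 ± 0.4, adjusted p = 0.000436). P2rx4, an ATP-gated channel, averaged 33.5 ± 11.1 CPM in D10 TE and 6.34 ± 7.09 CPM in E4 TE (log2 2.67 ± 0.61, adjusted p = 0.00254). The P2rx4 values rest on 82 counts in D10 TE and only 7 in E4 TE, so the size of its change is loosely set. Entpd1, the ectonucleotidase CD39, was lower in the ICM than the TE at E4 (log2 -1.72 ± 0.33, adjusted p = 0.000248) and at D10 (log2 -1.63 ± 0.33, adjusted p = 0.000584). Pnp, which splits purine nucleosides, was higher in the ICM at E4 (log2 2.32 ± 0.44, adjusted p = 0.000241). Slc28a3, a nucleoside transporter, was lower in the ICM at D10 (log2 -1.73 ± 0.43, adjusted p = 0.00368).

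Of 7 tested acid and lipid phosphatases, 2 rose and 0 fell at D10 in the ICM (28.6% and 0%, against 13.7% and 9.97% of all genes). In the TE 2 rose and 1 fell (28.6% and 14.3%, against 11.9% and 9.89% of all genes). Against the TE at E4, 1 was higher in the ICM and 2 lower (14.3% and 28.6%, against 15.8% and 15.4% of all genes). At D10, 0 were higher and 2 lower (0% and 28.6%, against 12.9% and 12.6% of all genes). Plpp3, a lipid phosphate phosphatase of the cell surface, averaged 178 ± 72.2 CPM in D10 ICM and 71.5 ± 26.8 CPM in E4 ICM (log2 1.33 ± 0.32, adjusted p = 0.00389). Minpp1, an inositol phosphate phosphatase, rose in the ICM (log2 1.01 ± 0.26, adjusted p = 0.00679), with adjusted p = 0.0772 in thinned libraries. Acp5, the tartrate-resistant acid phosphatase, fell to 28.7 ± 9.59 CPM in D10 TE, against 94.7 ± 26.8 CPM in E4 TE (log2 -1.65 ± 0.32, adjusted p = 0.000431). Acpp, the prostatic acid phosphatase, averaged 211 ± 62.2 CPM in D10 TE and 81.9 ± 52.9 CPM in E4 TE (log2 1.37 ± 0.38, adjusted p = 0.0112), with adjusted p = 0.111 without the zona litters. At D10, Acpp was lower in the ICM than the TE (log2 -2.0 ± 0.4, adjusted p = 0.000421), and so was Acp5 (log2 -1.33 ± 0.39, adjusted p = 0.0136), with adjusted p = 0.0695 for Acp5 without D10 ICM replicate 4. At E4, Acp5 (log2 -2.15 ± 0.35, adjusted p = 4.11e-05) and Plpp2, another lipid phosphate phosphatase (log2 -2.18 ± 0.37, adjusted p = 7.96e-05), were lower in the ICM.

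**Figure D5:**
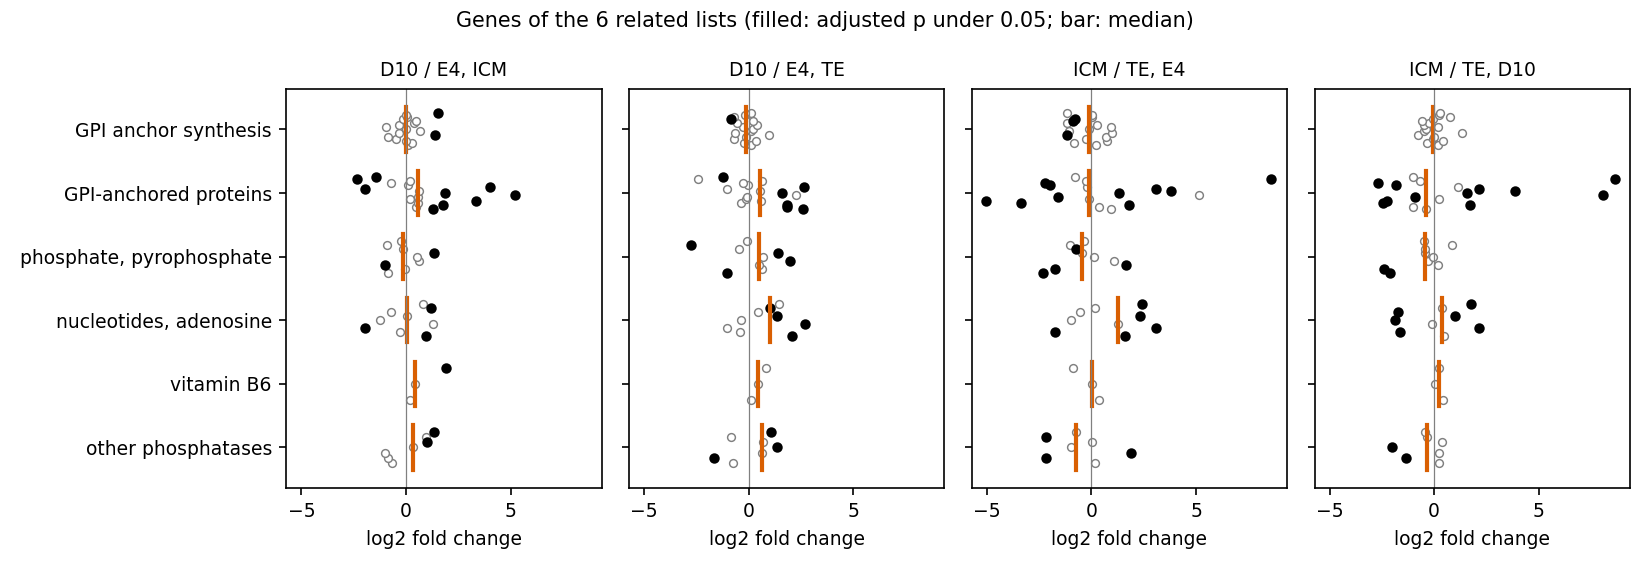
Fitted log2 fold changes of the tested genes of the 6 related lists, D10 over E4 in the ICM and in the TE and ICM over TE at E4 and at D10, with filled points for an adjusted p under 0.05 and a bar at each list's median. The medians of the GPI anchor list lie close to 0, at 0.01 for time in the ICM and -0.13 in the TE, with single genes up to 1.53 for time in the ICM, while single GPI-anchored proteins reach 5.21 and -2.35 for time in the ICM.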

How the data were processed

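Polyadenylated RNA was read from its 3′ ends by BRB-seq, a method that tags each library with a barcoded oligo-dT primer; per the labels' protocols, read 1 held 10 bases of molecular identifier (UMI) and 9 of barcode, and read 2 an insert of 81 bases. The authors deposited raw counts per gene and library, and a barcode list with litters and zona. Reads were handled with HISAT2 2.2.1, featureCounts 2.0.1, Trim Galore 0.6.7 and UMI-tools, per the submitters' processing notes, which list the builds GRCm38 and GRCh38 without a role. For UMI collapsing, strand and annotation the choice is not stated by them, so intervals and limits cover counting error only.

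Counts of 6943 genes (filterByExpr, minimum count 10) entered 1 edgeR 4.0.16 quasi-likelihood fit of the 4 groups in R 4.3.3 with TMM factors (limma 3.58.1 installed beside it), adjusted by Benjamini-Hochberg within each of 5 comparisons at 0.05. The fit was tested on simulated data. Alternatives were DESeq2 1.42.0, its size factors, library totals, other filters, thinned libraries, litter as a block, no zona litters, and each library left out. Libraries of 1 litter deviated together (mean correlation 0.168 at D10, -0.0302 to 0.293, and 0.177 at E4, 0.104 to 0.263), the pairing coming from the barcode list. No replicate pair agreed within counting noise (lowest chi-square per degree of freedom 2.58 over 40 pairs). Genes were named by rule: the members, the other alkaline phosphatases, up to 2 called genes of each list per comparison with the smallest adjusted p, and the 5 most correlated genes of each member. Lineage markers are given as sums, except where a value rests on one. The result of 1 list is not reported here. Members and lists were chosen with earlier results of these data known.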

Additional observations from a re-analysis of the deposited data

Results flagged for a closer look

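Alpl stood apart in 1 library of each ICM group. It reached 254 CPM in D10 ICM replicate 4, and the gap to the next library was 0.836 of the group's range. It reached 368 CPM in E4 ICM replicate 1, with a gap of 0.712 of the range, where 0.71 is the limit for 5 samples. Over 24 groups of 5 values looked at, 2 were past the limit, and chance gives about 1 in 20. The median ICM minus TE difference of Alpl within litters was -2.87 at D10 and 0.14 at E4 on the log2 scale. All 5 litters lay below 0 at D10 and all 5 above it at E4. The E4 differences were 0.14, 0.06, 0.84, 0.14 and 2.59 in litters B, C, M, N and O. The last of these rests on 2 Alpl counts in the TE. As Alpl was picked on these contrasts, the difference between the times was not tested. The D10 minus E4 change differed between ICM and TE for Ppa1 (log2 -1.51 ± 0.42, adjusted p = 0.0327; 0.0072 to 0.178 over 28 alternatives, lost when any 1 of 12 libraries was left out) and for Plpp2 (log2 1.83 ± 0.51, adjusted p = 0.0318; 0.00733 to 0.0957 over 27 alternatives, lost when any 1 of 4 libraries was left out), both by edgeR's quasi-likelihood test.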

How the results depend on the processing

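No member value reversed beyond its spread under 27 or 28 alternatives. That spread was the pooled SD of log2 CPM within groups, 0.79 for Alppl2 and 0.95 for Alpl. It exceeds the size of Alpl at -0.49 (D10 over E4, ICM) and 0.32 (ICM over TE, E4), and of Alppl2 at -0.69 (ICM over TE, D10). Those values could change sign within it, so the rule says little about their direction. Without D10 ICM replicate 4, Alppl2 moved to -4.99 (D10 over E4, ICM), -1.49 (ICM over TE, D10) and 0.95 (difference of changes); leaving out each library gave -4.99 to -3.94, -1.49 to -0.34 and 0.95 to 2.13. The Alpl value for ICM over TE at E4 ran from -0.08 to 0.81. Calls over all genes were 1643 and 1513 for time in ICM and TE, 2165 and 1771 for tissue at E4 and D10, and 346 for the difference. They were 538 for the difference with no filter; 1003 (TE), 1404 (E4) and 1170 (D10) at a minimum of 30, where fewer genes were tested; 198 for the difference without the zona litters; and 868, 791, 1261, 924 and 175 with thinned libraries, which hold fewer counts. The cause of the other shifts was not tested. Calls among the 61 list genes, 18, 18, 24, 20 and 2 in that order, were 5 for the difference with no filter; 10 (TE), 14 (E4), 13 (D10) and 1 (difference) at 30; 11 (ICM) and 0 (difference) without zona litters; and 11 (ICM), 9 (TE) and 11 (D10) thinned. Each library left out gave 11 to 22 in the TE, lowest without E4 TE replicate 4, and 0 to 2 for the difference. With the litter as a replicate block the list calls of the difference were 4, and no other count over all genes or over the 61 moved by over 1.5 times; of single lists, the block gave 5 calls for acid and lipid phosphatases at E4 (3 without), 2 for GPI anchor genes at D10 (0 without), and 1 for GPI-anchored proteins (0) and 2 for phosphate genes (1) in the difference. Counts of single lists moved more: over all alternatives, time in the ICM and TE gave 5 to 12 and 3 to 8 for GPI-anchored proteins, 1 to 5 and 1 to 6 for nucleotide genes, and acid and lipid phosphatases at E4 gave 0 to 5. Library totals shifted the median of all genes by -0.2 (ICM), 0.141 (E4) and -0.142 (difference); no member changed direction under another scaling. Depth limits Alppl2 at D10, with 7 counts in ICM and 13 in TE.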
